A study of Mus musculus with 3 samples.

Results

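The HMG chromatin proteins are represented here by 8 genes, Hmgn1, Hmgn2, Hmgn3, Hmgn5, Hmga1, Hmgb1, Hmgb2 and Hmgb3, out of 14133 genes in the expression table of female mouse primordial germ cells. All 8 named rows were found. The genes were selected by name from measured values of these same libraries, with their differences between stages already known, so their levels and stage differences are given as descriptions and nothing is tested with them. The library of each stage, embryonic day (E) 12.5, E14.5 or E16.5, held Oct4-EGFP-positive cells, that is, cells sorted for a green reporter driven by the regulatory sequence of the pluripotency gene Oct4 (Pou5f1), from C57BL/6 fetal ovaries. RNA was captured at its 3' end in droplets (10x Genomics, version 2 kit), so each unique molecular identifier (UMI) stands for 1 captured molecule and scaled UMI levels need no correction for gene length. There was 1 library per stage, the number of animals pooled in each is not given in the sources used here, and the reporter is carried by the cells of all 3 stages.

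Mammalian HMG proteins are abundant, small, non-histone components of chromatin that fall into 3 families. HMGN proteins bind the nucleosome core and compete with linker histone H1, HMGA proteins bind the minor groove of AT-rich DNA through AT hooks, and HMGB proteins bend DNA with their HMG boxes and carry an acidic tail. HMGB2 is known as a protein of proliferating cells and, in the adult mouse, of the testis, and HMGN5 is the HMGN protein with a long acidic tail.

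The table held 4706, 9075 and 5363 cells at E12.5, E14.5 and E16.5. After clustering, 4678, 8903 and 5312 of them were germ cell-like by markers, and their median depth was 26710, 11002 and 12632 UMIs per cell. The other class was pregranulosa-like, with 25, 166 and 22 cells, and those cells also carried germ cell markers, so germ cell RNA was present in them. At E12.5, 633 germ cell-like cells formed 1 cluster that held 2223 of the 2350 Y-linked UMIs of that stage, against the label of a female source. At E16.5, 305 cells (5.74% of the germ cell-like cells) lay in 4 clusters made mostly of E14.5 cells, and 6 of them had a barcode that also occurs in the E14.5 library. The libraries shared 58 (E12.5 and E14.5), 43 (E12.5 and E16.5) and 72 (E14.5 and E16.5) cell barcodes. With 1 library per stage there is no replicate, stage and library cannot be told apart, and all intervals below cover counting error only.

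The 8 genes lie on 7 chromosomes (GENCODE vM21, GRCm38), each as a protein-coding gene. The HMGN genes are Hmgn1 (chr16:96120618-96127729), Hmgn2 (chr4:133964738-133968650), Hmgn3 (chr9:83109948-83146685) and Hmgn5 (chrX:109004534-109013404), all on the minus strand. Hmga1 is at chr17:27556497-27563674 on the plus strand. The HMGB genes are Hmgb1 (chr5:149046702-149184489, minus), Hmgb2 (chr8:57511907-57515999, plus) and Hmgb3 (chrX:71555918-71560676, plus). Of the 60-base windows in the last 500 bases of the longest transcript, 86.4% in Hmga1 also occurred in transcripts of another gene and 33.8% in Hmgn2 also occurred in those of Gm10282, and none did so in another gene for the other 6 members. The counts of Hmga1, and with them its direction between stages, are therefore uncertain throughout, and those of Hmgn2 are uncertain in part.

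Promoters (250 bases before to 50 bases after a start site, RefSeq, GRCm38.p6) were matched for 7 members in 9 entries. Each window was searched on both strands for CCAAT, the pentamer bound by the factor NF-Y. At least 1 copy occurred in 37.4% of all 32851 promoters, at least 2 in 11.7%, at least 3 in 3.37% and at least 4 in 1.06%. The Hmgb2 promoter held 4 copies, Hmgb3 held 3, Hmgb1 held 3 in one entry and 0 in the other, Hmgn1 and Hmgn5 held 2 each, Hmgn2 held 1 and both Hmga1 entries held 0. A match is a description of letters and not of a bound site. The promoters of the most abundant member (Hmgb2) and of the X-linked pair, Hmgb3 and Hmgn5, are shown. The level of Hmgb2 stayed within 2-fold over the stages, as did that of Hmgb1. That of the X-linked pair did not, and neither did those of Hmgn1 and Hmgn2, among others. A link between CCAAT copies and levels was not tested. Capitals mark CCAAT on either strand, the strand printed is that of the gene, and the windows are chr8:57511593-57511892 (plus), chrX:71555667-71555966 (plus) and chrX:109013331-109013630 (minus) in the order of the lines.
Hmgb2: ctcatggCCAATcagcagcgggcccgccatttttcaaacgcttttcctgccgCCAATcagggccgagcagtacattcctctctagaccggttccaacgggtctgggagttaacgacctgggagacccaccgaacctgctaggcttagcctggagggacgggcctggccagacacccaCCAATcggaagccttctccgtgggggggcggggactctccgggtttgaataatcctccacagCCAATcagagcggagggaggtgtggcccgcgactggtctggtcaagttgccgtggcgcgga
Hmgb3: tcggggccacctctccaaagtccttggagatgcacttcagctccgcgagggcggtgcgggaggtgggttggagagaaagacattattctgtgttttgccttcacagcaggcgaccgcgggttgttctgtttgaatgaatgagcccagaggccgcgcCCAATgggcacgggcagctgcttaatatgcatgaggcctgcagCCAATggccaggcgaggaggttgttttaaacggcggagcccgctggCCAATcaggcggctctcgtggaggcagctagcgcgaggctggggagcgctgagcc
Hmgn5: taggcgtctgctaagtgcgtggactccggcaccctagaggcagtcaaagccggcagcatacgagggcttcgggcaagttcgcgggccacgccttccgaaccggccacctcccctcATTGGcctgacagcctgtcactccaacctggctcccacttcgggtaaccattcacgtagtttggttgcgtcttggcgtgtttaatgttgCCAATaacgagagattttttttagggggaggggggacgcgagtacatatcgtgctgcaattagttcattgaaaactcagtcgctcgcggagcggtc

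Together the 8 genes took 0.568%, 0.421% and 0.288% of all UMIs of germ cell-like cells at E12.5, E14.5 and E16.5. Scaled to a total of 1000000 UMIs (CPM), that was 5678, 4213 and 2879 CPM. The HMGB family held the larger share throughout, with summed levels of 3831, 3333 and 2455 CPM, while the HMGN family had 1823, 869.6 and 403.3 CPM. Hmgb2 alone supplied 39.1%, 45.4% and 53.2% of the members' UMIs. In proportion to its E12.5 level, the HMGN sum was thus further down at E16.5 than the HMGB sum.

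**Figure D1:**
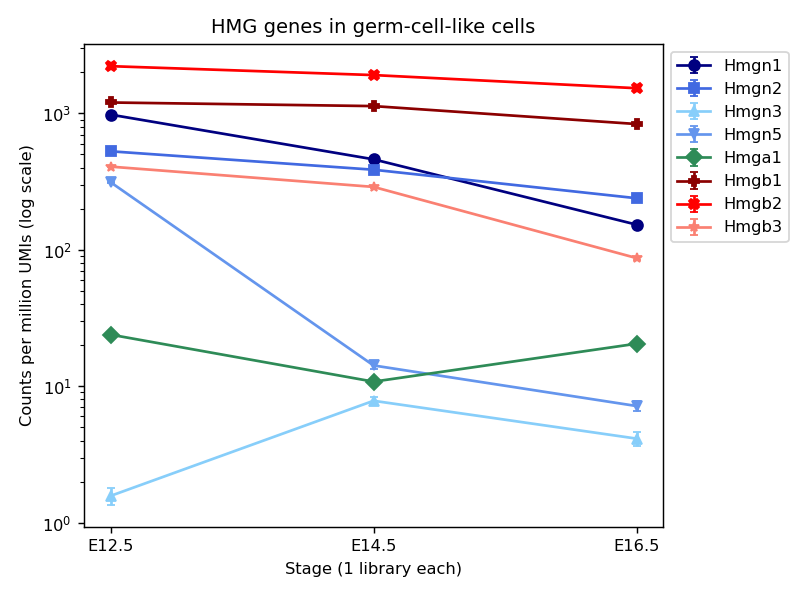
Level of each HMG gene (CPM, log axis) in germ cell-like cells of the 3 stages, 1 library each, with exact Poisson 95% intervals. Hmgb2 is highest at each stage, Hmgn5 has 313.2, 14.2 and 7.16 CPM, and Hmga1 is lowest at E14.5.

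Among the HMGN genes, Hmgn1, which encodes a nucleosome-binding protein, had 980.3 CPM (95% interval 974.9 to 985.8) at E12.5, 460.9 CPM (456.8 to 465.1) at E14.5 and 153.0 CPM (150.1 to 155.9) at E16.5. Its close relative Hmgn2 had 527.8, 386.7 and 239.0 CPM. The order of the pair was therefore turned round at E16.5, where Hmgn2 was above Hmgn1, and their intervals did not overlap at any stage. Hmgn5 had 313.2 CPM (310.1 to 316.3) at E12.5, 14.2 CPM (13.4 to 14.9) at E14.5 and 7.16 CPM (6.54 to 7.82) at E16.5. Hmgn3, a further nucleosome-binding member, was the scarcest, with 1.57 CPM (1.35 to 1.80), 7.82 CPM (7.29 to 8.38) and 4.13 CPM (3.67 to 4.64). It was the member with its highest level at E14.5.

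Hmga1, the AT-hook gene, had 23.9 CPM (23.1 to 24.8) at E12.5, 10.8 CPM (10.1 to 11.4) at E14.5 and 20.5 CPM (19.5 to 21.6) at E16.5. Its intervals at the 3 stages did not overlap, but they do not cover the assignment of shared reads. Hmga2, a further AT-hook gene, was near the limit of detection with 1.43, 1.31 and 0.478 CPM.

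In the HMGB family, Hmgb2 had 2221 CPM (2213 to 2230) at E12.5, 1911 CPM (1903 to 1920) at E14.5 and 1531 CPM (1522 to 1541) at E16.5. Hmgb1, the most widely expressed HMGB gene, had 1203, 1132 and 836.3 CPM. Hmgb3, known from stem and progenitor cells, had 407.4, 289.3 and 87.0 CPM. All 3 were lower at each later stage, and the ratios of Hmgb3 were the furthest from 1. In rank among all genes, Hmgb2 stood at 88, 90 and 108, Hmgb1 at 137, 129 and 167, and Hmgb3 at 362, 485 and 1738. The order at E12.5 was Hmgb2, Hmgb1, Hmgn1, Hmgn2, Hmgb3, Hmgn5, Hmga1 and Hmgn3, and no neighbours in it had overlapping counting intervals.

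Between E14.5 and E12.5, 1 of the 8 genes had a level 2-fold or more above that of E12.5 and 3 had one 2-fold or more below it. Of the 14132 genes with at least 10 UMIs over the 3 sums, 31.2% were past 2-fold on the higher side and 16.3% on the lower side. These values belong to the contrast on which the genes were selected, so nothing is read from the count. The gene on the higher side was Hmgn3, with a log2 ratio of 2.32 (2.09 to 2.55) at E14.5 against E12.5. On the lower side, Hmgn5 was 22.1-fold lower (21.0 to 23.3), Hmga1 was 2.22-fold lower (2.07 to 2.38) and Hmgn1 was 2.13-fold lower (2.10 to 2.15). The log2 ratio was -0.45 for Hmgn2, -0.49 for Hmgb3, -0.22 for Hmgb2 and -0.09 for Hmgb1. The median over the 8 genes was -0.47, against 0.30 over all genes tested. With Hmga1 left out, 2 of 7 genes were past 2-fold on the lower side and the median was -0.45. Among the 2059 genes with at least 100 CPM in a stage, Hmgn5 was number 2 from the lowest ratio. Hmgb1, at -0.09, was number 958 there, near the middle. The median of 0.30 over all genes may therefore not hold for abundant genes, whose own median is not given.

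Between E16.5 and E14.5, 0 of the 8 genes were past 2-fold on the higher side (16.3% of all genes tested) and 2 on the lower side (17.3% of all genes tested). Hmgb3 was 3.32-fold lower (3.23 to 3.42) and Hmgn1 was 3.01-fold lower (2.95 to 3.08). Hmgn5 (1.98-fold lower) and Hmgn3 (1.89-fold lower) fell just short of 2-fold. The count on the lower side became 4 with scaling by trimmed means, and also 4 without the 305 E16.5 cells that clustered with E14.5. It became 3 with median-of-ratios scaling, in thinned cells and without cells of over 5000 genes. Under the other settings counted it stayed at 2. The 17.3% belongs to the main scaling, and the share of all genes under the other settings is not given. Hmga1 was 1.91-fold higher (1.76 to 2.06), a direction that is uncertain because most of its 3' end is shared with another gene. The log2 ratios of the other members were -0.69 for Hmgn2, -0.44 for Hmgb1 and -0.32 for Hmgb2. The median of the 8 was -0.81, against 0.06 over all genes tested, and -0.92 with Hmga1 left out.

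Across the whole span, E16.5 against E12.5, 1 gene was past 2-fold on the higher side (37.0% of all genes tested) and 4 on the lower side (22.7%). Hmgn5 was 43.7-fold lower (40.0 to 47.9), Hmgn1 6.41-fold, Hmgb3 4.68-fold and Hmgn2 2.21-fold lower. Hmgn3 was 2.64-fold higher. Hmgb1 and Hmgb2 were lower by 1.44-fold and 1.45-fold. The 3 comparisons share libraries, so they are not separate pieces of evidence.

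**Figure D2:**
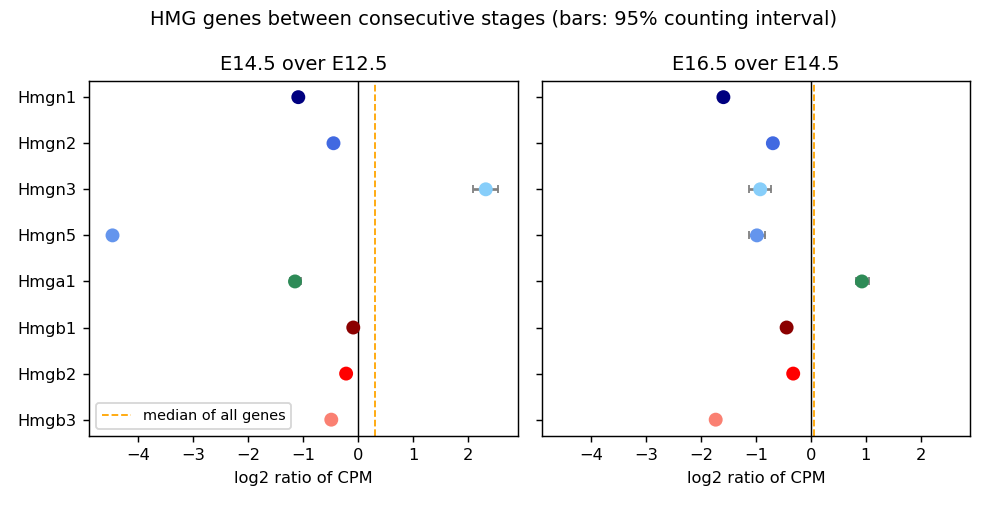
log2 ratio of CPM of each HMG gene at E14.5 over E12.5 (left) and E16.5 over E14.5 (right), with 95% counting intervals, and the median of all genes tested as a dashed line (0.30 and 0.06). Hmgn5 stands at -4.47 on the left, and Hmgb3 and Hmgn1 at -1.73 and -1.59 on the right.

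Hmgn5 and Hmgb3 are on the X chromosome. The 496 X-linked genes tested had a median log2 ratio of 0.78 at E14.5 over E12.5, where Hmgn5 and Hmgb3 had -4.47 and -0.49, and of -0.03 at E16.5 over E14.5, where they had -0.98 and -1.73. Both X-linked members thus lay below the X-linked median in each comparison. In the E12.5 cluster that held the Y-linked UMIs, Hmgb3 had 283.2 CPM against 427.0 CPM in the largest E12.5 cluster (ratio 0.663, interval 0.644 to 0.683), and Hmgn5 had 280.3 against 318.8 CPM (ratio 0.879). The median log2 ratio there was -0.31 over 466 X-linked genes and -0.03 over all genes. Hmga1 had 29.9 against 22.9 CPM, and Hmgn1, Hmgn2, Hmgb1 and Hmgb2 had ratios of 0.956, 1.02, 1.04 and 0.982. This contrast between clusters was chosen after the values were seen.

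Depth differed between the libraries, so each cell was also thinned to 5000 UMIs, leaving out 0, 11 and 25 cells. Hmgn5 then had a UMI in 73.5% of cells at E12.5 (exact binomial 95% interval 72.2 to 74.8), 5.90% at E14.5 (5.42 to 6.41) and 3.54% at E16.5 (3.06 to 4.07). Before thinning the shares were 98.1%, 13.4% and 7.81%. Hmgn1 was found in 81.8% of thinned cells at E14.5 and 49.5% at E16.5, and in 94.0% and 77.9% before thinning, with nearly all cells positive at E12.5. Hmgb3 was found in 85.0%, 66.4% and 31.8% of thinned cells, and in 99.8%, 82.5% and 57.9% before thinning. The difference between stages was therefore present at equal depth for these 3 genes. Hmgb1 (99.7%, 99.2% and 93.9%) and Hmgb2 (at least 99.6% at each stage) stayed close to all thinned cells. Hmgn2 was found in 91.8%, 81.5% and 64.5%, Hmga1 in 11.8%, 4.89% and 9.19%, and Hmgn3 in 0.770%, 3.53% and 1.82% of thinned cells.

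**Figure D3:**
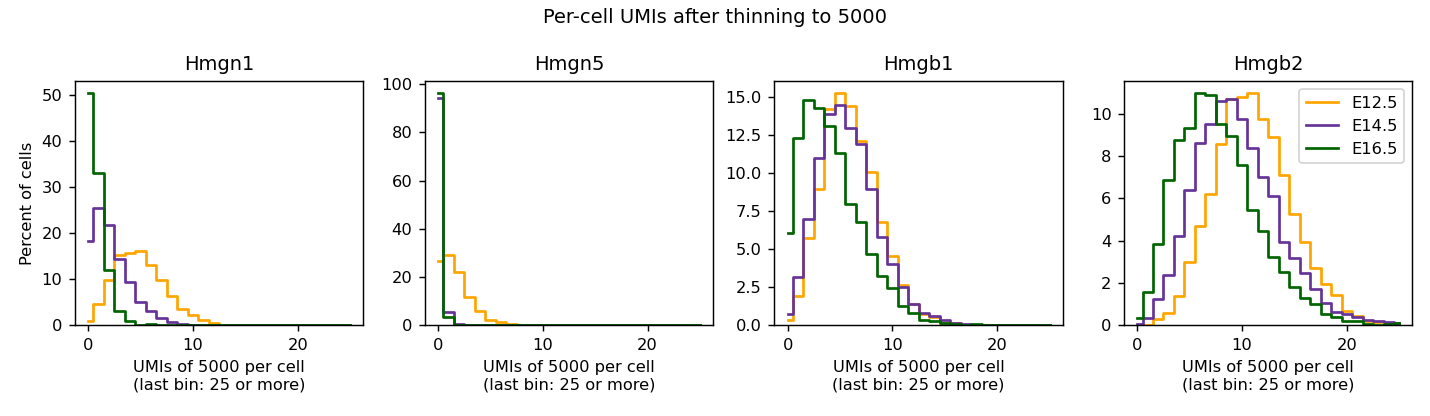
Percent of germ cell-like cells (vertical axis) by number of UMIs of a gene after thinning to 5000 UMIs per cell, for Hmgn1, Hmgn5, Hmgb1 and Hmgb2 at the 3 stages. Hmgn5 has 0 UMIs in most thinned cells at E14.5 and E16.5, while the Hmgb1 and Hmgb2 distributions of the stages overlap over most of their range.

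No cell class in the table is known to lack HMG RNA, so free RNA could not be measured from a negative class, and the pregranulosa-like cells serve only for comparison. Their thinned shares for Hmgn5 were 40.0%, 17.5% and 31.8%, at median depths of 13397, 8492 and 12462 UMIs. At E14.5 and E16.5 the germ cell-like shares of 5.90% and 3.54% lay below these. Their Hmgn3 level was 17.6, 40.1 and 50.9 CPM, above that of germ cell-like cells at each stage. Their Hmgb2 level of 932.8, 482.9 and 735.8 CPM was lower than in germ cell-like cells, and their Hmgn1 level at E16.5 was 793.5 CPM against 153.0 CPM. These values rest on 25, 166 and 22 cells.

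Variation between cells relative to the mean was higher at each later stage for Hmgb1 and Hmgb2. In thinned cells, the variance over the mean (Fano factor, 1 for counting error alone) of Hmgb1 was 1.18, 1.37 and 2.08, and that of Hmgb2 was 1.22, 1.63 and 1.92. For Hmgb1 the 10th percentile, median and 90th percentile were 3, 6 and 10 UMIs at E12.5, 2, 5 and 9 at E14.5 and 1, 4 and 8 at E16.5. The Fano factor of Hmgn1 was highest at E14.5 (1.18, 1.61 and 1.22). Over thinned cells of 1 library, the correlations of the 28 gene pairs were mostly weak, with medians of 0.006, 0.017 and 0.026. The highest were Hmgb1 with Hmgb2 at E16.5 (Pearson r = 0.329 over 5287 cells) and Hmgn1 with Hmgb3 at E14.5 (r = 0.256 over 8892 cells). Unthinned, these were 0.486 and 0.417. All cells of a stage share 1 library, so these are descriptions.

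To see what this spread followed, cells of each stage were ranked by the share of their UMIs in 20 meiotic genes, none an HMG gene, and split in 4 equal bins. All 20 meiotic genes were at least 2-fold higher at E14.5 than at E12.5, beside 31.2% of all genes. The list was chosen with earlier results of these data known, so this count only describes it. At E14.5, the lowest to the highest bin had 734.3, 439.3, 324.6 and 243.5 CPM of Hmgn1, and 410.5, 337.2, 225.7 and 121.7 CPM of Hmgb3. Hmgn5 had 24.7, 14.8, 8.77 and 4.13 CPM. Hmgn3 had 11.5, 12.0, 4.22 and 1.20 CPM, so its E14.5 maximum lay in cells of low meiotic score. Hmgb1 ran the other way, with 947.9, 1111, 1223 and 1327 CPM, and Hmgb2 had 1989, 1824, 1839 and 1993 CPM, without a trend. The ratio of the highest to the lowest bin was 0.332 for Hmgn1, lower than in all but 3.39% of the 1445 genes with at least 100 CPM at that stage, and 1.40 for Hmgb1, higher than in 68.3% of them. Median depth was 13408 UMIs in the lowest bin and 9129 in the highest. With all cells thinned to 5000 UMIs before scoring, Hmgn5 had 24.8, 12.6, 8.73 and 4.59 CPM and Hmgb1 had 963.8, 1124, 1214 and 1311 CPM.

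At E16.5, both Hmgb1 and Hmgb2 were higher in each successive meiotic bin. By meiotic bin, Hmgb1 had 576.5, 718.8, 959.8 and 1115 CPM, and Hmgb2 had 1165, 1348, 1653 and 1998 CPM. Hmgb3 had 127.6, 96.9, 67.9 and 52.1 CPM, and Hmgn1 had 208.0, 144.2, 138.3 and 117.4 CPM. Hmgn2 was flat, with 241.0, 233.8, 239.3 and 241.9 CPM. Median depth per bin lay between 12294 and 13034 UMIs. So the stage total of Hmgb1 and Hmgb2 was lower at E16.5 than at E14.5, while within E16.5 both were higher in cells of higher meiotic score. At E12.5 the corresponding ratios of highest to lowest bin were near 1 for Hmgn1 (0.988), Hmgn2, Hmgb1 and Hmgb2 (1.08), and Hmgn5 had 349.1, 333.2, 315.5 and 255.6 CPM. Hmgb3 was slightly higher in each successive bin at E12.5, with 382.4, 397.7, 419.3 and 429.2 CPM (ratio 1.12). That was the reverse of its direction at E14.5 and E16.5.

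**Figure D4:**
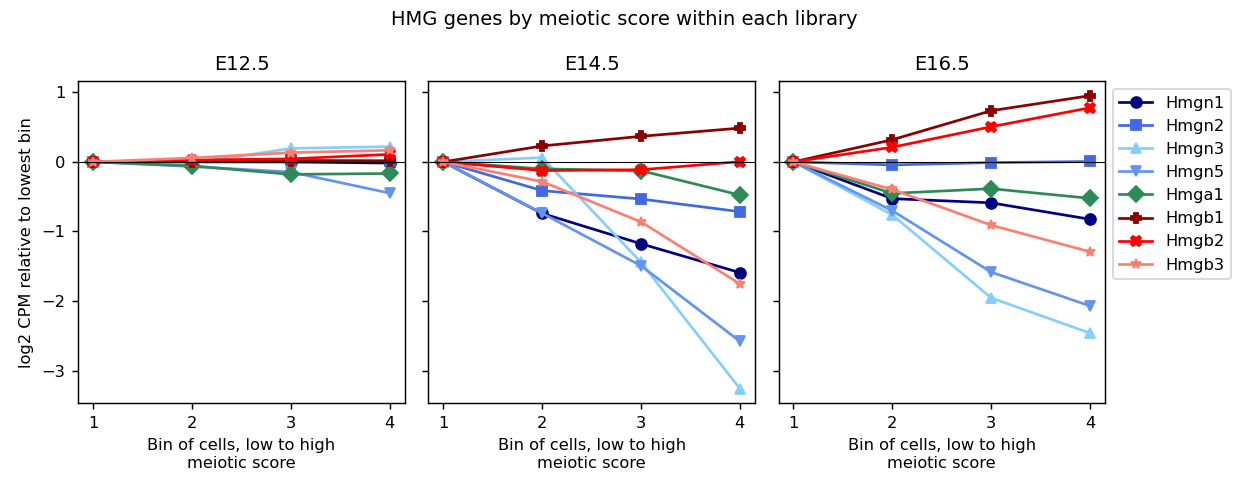
CPM of each HMG gene in bins of cells ranked by meiotic score, as log2 relative to the lowest bin, within each library. The members spread apart at E14.5 and E16.5, with Hmgb1 above 0 and Hmgb3, Hmgn1, Hmgn5 and Hmgn3 below 0 in the highest bin.

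Ranking by 18 pluripotency genes gave Hmgn5 a gradient inside the E12.5 library, with 226.3, 294.1, 334.2 and 395.5 CPM by bin. Its ratio of 1.75 (1.70 to 1.80) was higher than in 99.7% of 1482 genes, and in thinned cells it was 1.58 (1.47 to 1.69). No other member differed by as much at E12.5 in this ranking, where Hmgn1 had a ratio of 0.944, Hmgb3 0.864 and Hmga1 1.19. At E14.5, Hmgb3 had 101.3, 224.1, 350.8 and 410.5 CPM and Hmgn1 had 234.6, 336.5, 469.1 and 701.0 CPM by the same ranking. Median depth there was 8923 UMIs in the lowest bin and 13446 in the highest. In thinned cells the ratios of highest to lowest bin were 4.05 for Hmgb3 and 2.90 for Hmgn1. Ranking by 33 mitosis genes gave Hmgb2 1555, 1763, 1910 and 2360 CPM at E14.5, with a ratio of highest to lowest bin above that of 97.6% of genes. In the same ranking Hmgn1 had 398.4, 384.4, 406.6 and 631.7 CPM, and Hmgn2 had 339.0, 354.8, 357.5 and 482.9 CPM, so for both the highest bin stood apart from the others. At E12.5, Hmgb2 had 2049, 2240, 2283 and 2310 CPM by mitosis score. Its ratio of 1.13 there was small but above that of 86.3% of genes. At E16.5 the ratio of Hmgb2 by mitosis score was 1.29, above that of 89.6% of genes. Ranking by 33 S phase genes at E16.5 gave Hmgb1 537.2, 713.6, 939.2 and 1161 CPM and Hmgb2 1108, 1403, 1706 and 1915 CPM. Their ratios of highest to lowest bin were above those of 97.3% and 89.6% of genes. Whether this score marks replication at E16.5 was not tested. In the same ranking at E14.5, Hmgb2 ran the other way with 2000, 1985, 1875 and 1794 CPM and Hmgb1 had 1071, 1129, 1160 and 1166 CPM, and at E12.5 the ratios of highest to lowest bin were 0.989 for Hmgb2 and 1.13 for Hmgb1.

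Clusters within libraries showed the same members in groups of cells. Clusters were formed on the same counts, so contrasts between them are descriptions. At E16.5 the 2 large clusters had equal median depth, 12614 UMIs in the 2822 cells of cluster 9, with Ablim1 and Myom3 among its 10 leading genes, and 12595 UMIs in the 2185 cells of cluster 7, with Pcdh17 and the recombination gene Prdm9 among its own. Hmgb1 had 541.1 CPM in cluster 9 against 1147 CPM in cluster 7 (2.12-fold lower, 2.08 to 2.16), and Hmgb2 had 1200 against 1902 CPM (1.59-fold lower). All germ cell-like cells of E14.5 together had 1132 CPM of Hmgb1 and 1911 CPM of Hmgb2. Cluster 7 was thus near the E14.5 level for both genes, and cluster 9 was below it. Hmgn2 had 192.3 CPM in cluster 9 against 266.9 CPM in cluster 7. Hmgn1 (126.8 against 140.8 CPM) and Hmga1 (14.8 against 22.7 CPM) were lower in cluster 9 too. Hmgn3 (5.48 against 1.38 CPM), Hmgn5 (9.02 against 2.80 CPM) and Hmgb3 (89.3 against 57.8 CPM) were higher in cluster 9. The median log2 ratio of cluster 9 over cluster 7 was 0.32 over all genes and 0.39 over 485 X-linked genes, against 0.63 for Hmgb3. In this contrast, chosen after the values were seen, 2 members were past 2-fold on the higher side, against 21.4% of genes, and 1 on the lower side, against 5.72% of genes.

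At E14.5, the clusters numbered 4, 5 and 6 held 3271, 2181 and 3168 cells. Hmgn1 had 643.8, 407.7 and 254.3 CPM in them, Hmgb3 had 418.2, 286.5 and 119.3 CPM, and Hmgn3 had 14.6, 4.87 and 1.10 CPM. Hmgb1 had 993.6, 1200 and 1253 CPM. Hmgb2 was nearly level, with 1878, 1929 and 1930 CPM. Within E14.5 the spread of Hmgn1 between clusters was thus of a similar size to its differences between consecutive stages (2.13-fold and 3.01-fold). It was smaller than the 6.41-fold difference between E12.5 and E16.5.

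The 305 E16.5 cells in clusters shared with E14.5 allowed the same cluster to be compared in both libraries. Their median depth was 20496 UMIs against 12861 in the E14.5 cells of cluster 4, 18124 against 11227 in cluster 5, 11150 against 9459 in cluster 6 and 7811 against 6990 in cluster 8, and the part of depth or doublets in these ratios was not tested. In cluster 4, Hmgn1 had 636.5 CPM in E16.5 cells against 643.8 CPM in E14.5 cells, Hmgb1 1080 against 993.6 CPM and Hmgb2 1851 against 1878 CPM, and Hmgb3 was lower (337.5 against 418.2 CPM). Hmga1 had 54.8 CPM in E16.5 cells against 12.0 CPM in E14.5 cells (4.58-fold, 3.65 to 5.70) in cluster 4, 61.5 against 10.9 CPM (5.63-fold) in cluster 5, 44.3 against 9.02 CPM (4.92-fold) in cluster 6 and 35.6 against 11.4 CPM (3.12-fold) in cluster 8. Of all genes with at least 10 UMIs in the contrast, 13.4%, 14.8%, 22.5% and 4.40% were at least 2-fold higher in the E16.5 cells. Hmga1 therefore differed with the library within each shared cluster, where the ratios of Hmgb1 and Hmgb2 lay between 0.924 and 1.09. Other members differed in some of these clusters, with ratios of 1.53 (lower bound 1.16) for Hmgn5 in cluster 4, 1.29 (1.16 to 1.43) and 1.35 (1.15 to 1.58) for Hmgn2 in clusters 6 and 8, and 0.569 (0.412 to 0.772) for Hmgb3 in cluster 8. Stage, library and the assignment of shared reads cannot be told apart there.

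**Figure D5:**
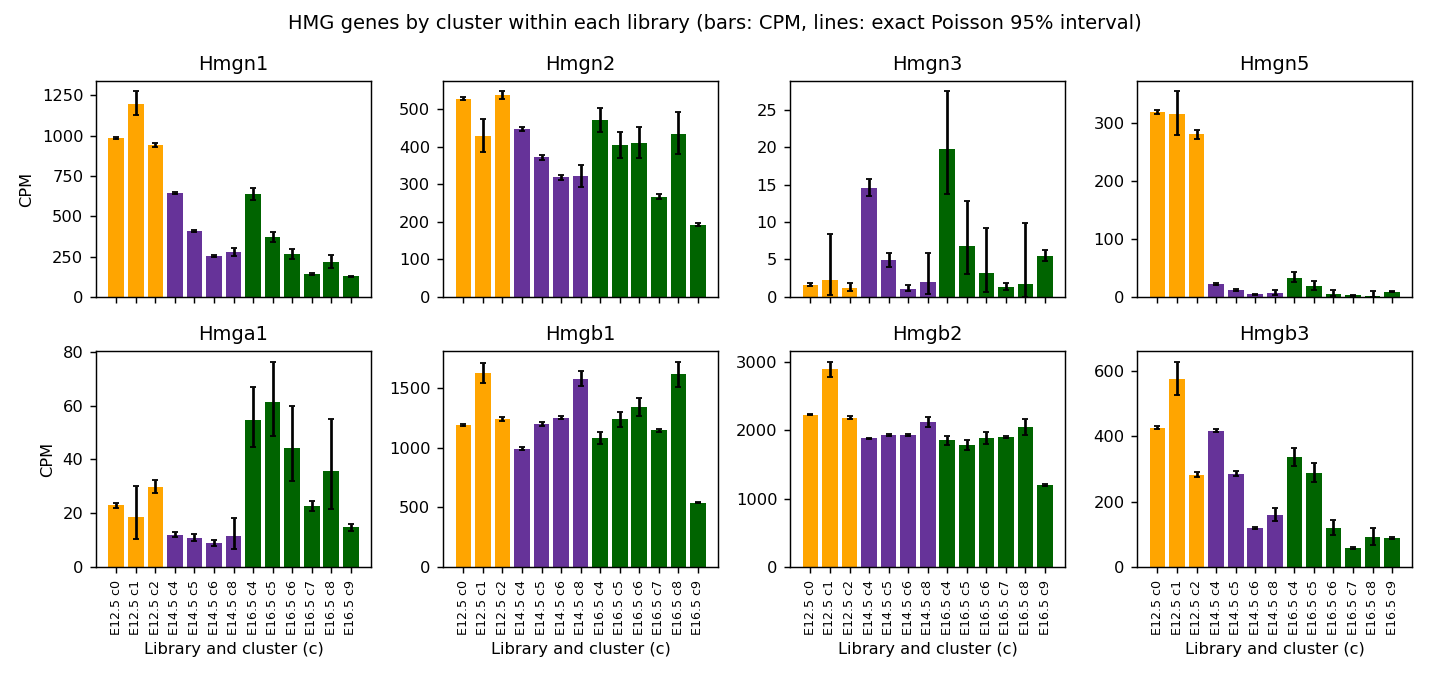
Level (CPM) of each HMG gene in the 13 groups of at least 50 germ cell-like cells, by library and cluster number, with exact Poisson 95% intervals. Hmga1 is higher in the E16.5 than in the E14.5 cells of each shared cluster, and Hmgb1 and Hmgb2 are lowest in the E16.5 cluster of 2822 cells (541.1 and 1200 CPM).

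Over these 13 groups, the genes most like each member were found by Pearson r of log2(CPM + 1) among 2059 genes with at least 100 CPM in a stage. Hmgn1 was most like Aldoa (r = 0.994), Utf1 (0.992) and Slc25a5 (0.991), and Hmgn5 was most like Cdk4 (0.989), Ubald2 (0.987) and Pgam1 (0.987). Hmgb1 was most like Sumo2 (0.988), Ube2k (0.963) and Ptma (0.958), and Hmgb2 was most like Ewsr1 (0.976), Hnrnpf (0.972) and Cnbp (0.927). Hmgb3 was most like Tcf3, H2afy and Ubtf (0.975 each). Hmgn2 was most like Vars (0.920), Asna1 (0.913) and Tmem256 (0.912). Lower values were reached by Hmgn3 with Bex1 (0.882) and Rpl12 (0.867), and by Hmga1 with Gm10076 (0.865), 0610010K14Rik (0.852) and Gm8186 (0.833). The groups share libraries, so these values describe likeness of pattern alone.

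Partners and relatives of the HMG proteins differed between stages in both directions. Linker histones, the competitors of HMGN proteins on the nucleosome, had 8 measured genes of 11, with 0 past 2-fold on either side at E14.5 against E12.5, where 31.2% of all genes were higher and 16.3% lower. At E16.5 against E14.5 there were 2 higher (H1f0 and Hist1h1t) and 2 lower (Hist1h1b and Hist1h1d), beside 16.3% and 17.3% of all genes. Hist1h1t rests on 29, 31 and 80 UMIs. How fully RNA of the Hist1h1 genes was captured was not tested, so these counts describe captured RNA alone. The median log2 ratios of the 8 linker histones were -0.20 and 0.41, against 0.30 and 0.06 over all genes tested. H1f0, the replacement linker histone of non-dividing cells, had 18.1, 20.2 and 167.0 CPM, an 8.25-fold higher level at E16.5 than at E14.5. H1fx had 152.0, 89.0 and 133.7 CPM, and Hist1h1e had 17.1, 17.9 and 21.5 CPM. At E14.5 against E12.5 the log2 ratios of the linker histones with at least 10 CPM in the higher stage lay between -0.97 for Hist1h1c and 0.34 for Hist1h1a. H1f0 was highest at E16.5, where Hmgn1, Hmgn2 and Hmgn5 were lowest but Hmgn3 was not, and H1fx was highest at E12.5. A link between the levels of linker histones and HMGN genes was not tested.

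Of 16 other measured HMG-box genes, 3 were past 2-fold on the higher side (Mael and Tox3 among them) and 3 on the lower side (Ssrp1, Hmg20b and Tfam) at E14.5 against E12.5, beside 31.2% and 16.3% of all genes. At E16.5 against E14.5 there were 0 and 2 (Ubtf and Wdhd1), beside 16.3% and 17.3%. The medians were 0.28 and 0.03. Mael, which acts in the piRNA pathway, had 50.4, 369.2 and 537.6 CPM. Ssrp1, a subunit of the histone chaperone FACT, had 302.0, 111.7 and 104.7 CPM, and Bbx had 99.6, 145.0 and 197.2 CPM. Hmg20b had 24.0, 8.48 and 9.63 CPM, Ubtf, the ribosomal RNA gene factor, had 135.5, 81.8 and 26.8 CPM, and Tfam, which packages mitochondrial DNA, had 64.3, 28.4 and 44.9 CPM.

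Histone chaperones and acidic nuclear proteins numbered 21, with 1 past 2-fold on the higher side (Asf1b) and 4 on the lower side (Set, Anp32a, Anp32e and Atrx) at E14.5 against E12.5, beside 31.2% and 16.3% of all genes. At E16.5 against E14.5 there were 0 and 4 (Set, Anp32a, Anp32b and Anp32e), beside 16.3% and 17.3%. Their median log2 ratios were -0.42 and -0.22. The most abundant were Npm1 (3656, 2481 and 2856 CPM), Ptma (2780, 2677 and 2180 CPM) and Ncl (1692, 918.5 and 1006 CPM). Anp32a, which encodes an acidic nuclear protein, had 247.4, 44.3 and 10.3 CPM, whereas Asf1b had 74.7, 246.3 and 194.7 CPM and Nasp, a chaperone of histone H3 and linker histones, had 409.0, 295.5 and 483.2 CPM. Among 13 genes of heterochromatin and chromosome architecture, Set had 1302, 320.8 and 155.7 CPM, Trim28 had 535.2, 280.9 and 207.6 CPM and Banf1 had 379.1, 492.9 and 428.0 CPM. In that list Satb1 had 3.91, 16.8 and 16.8 CPM, the lamin genes Lmnb1 and Lmna had 47.2, 10.7 and 11.8 CPM and 0.391, 9.92 and 25.3 CPM, and Cbx5 had 72.3, 62.3 and 30.1 CPM. There 2 genes were past 2-fold on the higher side (Satb1 and Lmna) and 3 on the lower side (Ctcf, Lmnb1 and Set) at E14.5 against E12.5, beside 31.2% and 16.3% of all genes. At E16.5 against E14.5 there were 1 (Lmna) and 2 (Cbx5 and Set), beside 16.3% and 17.3%. The medians of this list were -0.42 and -0.20.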

How the data were processed

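The 3 stages of Oct4-EGFP-positive cells were measured, with 1 library each. The deposited table holds 14133 genes in 19144 cells as natural log values, which the authors had scaled to a total of 10000 per cell, as the values show. Cell Ranger 2.0.0, FastQC and the build mm10 are named in the submitters' processing notes, and filters applied before deposit are not stated there. The deposited cells held 1998 to 5489 genes and at most 5.00% mitochondrial UMIs. Cells of over 5000 genes made up 21.2%, 0.220% and 1.16% of the E12.5, E14.5 and E16.5 libraries. Each cell's smallest non-zero value gave the worth of 1 UMI and so its depth over the listed genes, and 100.0% of 68606039 non-zero values came out within 0.01 of a whole UMI. Germ cell-like cells were found with scanpy 1.11.5 (2000 variable genes, 30 components, 15 neighbours, Leiden resolution 0.5, 10 clusters) and named by markers. The doublet caller Scrublet marked 38 cells (0.20%), which were removed. The expected rate it was given was 6%, so its calls cannot be relied on and doublets remain possible. UMIs were summed per stage (125161525, 102506950 and 68980723), expressed as CPM with Poisson 95% intervals (exact), and compared as the later over the earlier stage with exact conditional intervals (scipy 1.17.1). A difference was counted at 2-fold, and no test was run, since 1 library per stage gives no replicate. All 8 members are named, and from each list of HMG relatives and chromatin genes the 3 of highest CPM and those of the largest ratios among genes of at least 10 CPM, with any other gene of a small count named after its value was seen. The rule also covers the lists used for scores, whose genes are given here as scores alone. The members and lists were chosen with earlier results of these data known. The calculation was tested on simulated data. Some results on other genes, among them an alternative for Hmga1, are not reported here.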

Additional observations from a re-analysis of the deposited data

How the results depend on the processing

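The median log2 ratio of the 8 HMG genes stayed negative in all 3 comparisons under every setting run. At E14.5 over E12.5 (-0.47) it was -0.80 with median-of-ratios scaling, -0.74 with trimmed means of M values (TMM), -0.57 in thinned cells, -0.55 as the mean of CPM over cells and -0.51 without the E12.5 cluster of Y-linked UMIs. At E16.5 over E14.5 (-0.81) it was -0.93 without the E16.5 cells in clusters mostly of E14.5. At E16.5 over E12.5 (-0.84) it was -1.22 with median-of-ratios scaling, -1.20 with TMM, -0.90 without those E16.5 cells and -1.14 with Hmga1 left out. As a median difference of mean natural logs, another unit, the 3 comparisons gave -0.27, -0.30 and -0.59, which are -0.39, -0.43 and -0.85 in log2 units. Median-of-ratios and TMM scaling moved the median of all genes to -0.03 and 0.03 at E14.5 over E12.5, against 0.30. The direction of Hmga1 at E16.5 over E14.5 (0.93) is uncertain under all of them, since each keeps the assignment of reads it shares with another gene. Limited to the 2059 genes of at least 100 CPM, 668, 354 and 1001 genes were past 2-fold, in place of 6705, 4740 and 8441 of 14132. Both the number of genes tested and the share past 2-fold were thus lower. The shares of all genes given beside the members therefore depend on the abundance of the genes counted. The medians over all genes are not given for these 2059 genes alone. At 1.5-fold, 7500 genes passed at E16.5 over E14.5. The omission of E16.5 cells and that of Hmga1 were chosen after the data were seen. Of the correlations between members over cells, 43 moved without thinning and 41 did not. No paired analysis was possible because each stage has 1 library. Hmgn3 rests on 196, 802 and 285 UMIs, so its values are the least precise.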
